A study of Mus musculus with 24 samples.

Results

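Astrocytes of the adult mouse brain were compared after culture (AdAC CellC) and directly after isolation (AdAC direct), 4 libraries each, which makes 8 of the 24 RNA-seq libraries of the series. Both groups came from C57BL/6J mice aged 100 to 140 days, females and males mixed and 2 mice pooled per isolation, so that a library stands for an isolation and not for an animal. Brains were dissociated with the adult brain dissociation kit, debris and red blood cells were removed, and cells were taken by magnetic sorting with beads against ACSA-2, an antigen on the sodium pump subunit encoded by Atp1b2. AdAC direct cells were snap-frozen as pellets, whereas AdAC CellC cells were plated on poly-l-lysine and laminin and grown in AstroMACS medium for 7 to 10 days. The olfactory bulb and cerebellum were removed for direct isolation, and whether this was also done before culture is not stated in the sources used here. All genes on chromosomes 1 to 19 and on the mitochondrial genome were included, that is 45145 of the 49671 counted genes. Of these, 18935 passed the filter on low counts and were tested, and the 4181 genes on chromosomes X and Y were left out.

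Astrocytes clear glutamate and GABA from the synaptic cleft, take up potassium, exchange water at the endfeet that wrap blood vessels, couple to each other through gap junctions, and supply neurons with lipids and metabolites. When taken out of the brain and plated they lose contact with neurons and vessels, and they meet a stiff surface, a defined medium and free space to spread. Injured or inflamed tissue also moves astrocytes to a reactive state, in which intermediate filaments, matrix and signalling proteins are made in larger amounts.

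The 8 libraries held 27904126 to 35440406 assigned read counts each, at which 3 counts correspond to 0.0797 to 0.106 CPM (a gene's counts scaled to the same total in every library). Libraries of a group resembled each other closely, with correlations of log2 CPM across genes between 0.990 and 0.992 in AdAC CellC and between 0.989 and 0.994 in AdAC direct. Of the genes tested, 7337 were higher (38.7%) and 7463 lower (39.4%) in AdAC CellC at an adjusted p under 0.05 in edgeR's quasi-likelihood test, together 78.2%. With a log2 fold change beyond 1 as well, 4384 (23.2%) remained higher and 4816 (25.4%) lower. Since most genes passed, single calls say little, and the counts of the gene lists below are to be read against these shares. The 2 groups did not overlap in 76.5% of the genes tested, and the median log2 fold change over all genes was -0.003.

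Identity was first checked on marker genes, whose levels were summed for each library. The 26 astrocyte markers together took 33589 to 36837 CPM in AdAC direct and 2693 to 3582 CPM in AdAC CellC, a 10.9-fold difference between the means. Of these markers 25 fell and none rose, against 39.4% of all genes that fell. Gfap, the filament protein most often used to stain astrocytes, was the exception with 170, 175, 162 and 161 CPM in AdAC direct and 126, 200, 171 and 260 CPM in AdAC CellC. The cultures lay on both sides of the direct libraries, and the log2 fold change of 0.18 ± 0.14 (SE) did not pass (adjusted p = 0.239), although it did without AdAC CellC replicate 1 (0.35, adjusted p = 0.0106). Aldh1l1, the folate enzyme used as a pan-astrocyte marker, differed little as well, with 273 ± 23.8 CPM in AdAC direct and 180 ± 41.9 CPM in AdAC CellC (SD, n = 4 each; adjusted p = 0.0323). This call was lost without any of AdAC CellC replicates 1, 2 or 3 or AdAC direct replicates 1, 2 or 3, where the adjusted p lay between 0.0545 and 0.123.

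Markers of other cells were present in both groups. Oligodendrocyte markers summed to 17438 to 17851 CPM in AdAC direct and 4276 to 9611 CPM in AdAC CellC, lowest in AdAC CellC replicate 1. In all 4 cultures this sum was above that of the astrocyte markers, whereas in all 4 direct libraries it was below. Of 13 oligodendrocyte markers tested 12 fell and none rose (median -1.955). The exception was Mbp, the myelin basic protein gene, which had 4554 ± 302 CPM in AdAC direct and 3355 ± 1144 CPM in AdAC CellC and did not pass (adjusted p = 0.181). Markers of ependymal cells summed to 2887 to 3298 CPM before and 516 to 699 CPM after culture, and those of the choroid plexus to 1690 to 2253 and 830 to 1227 CPM, although in the choroid plexus list 3 of 12 members rose, 2 fell and 7 did not pass (median 0.14). Fibroblast and meningeal markers went the other way, from 153 to 177 CPM in AdAC direct to 1480 to 1905 CPM in AdAC CellC, mostly through collagens, and 12 of the 17 markers rose and 2 fell (median 1.34). Among them Dcn rose from 6.64 ± 1.04 to 10.5 ± 1.18 CPM (adjusted p = 0.0238) and Lum from 0.972 ± 0.378 to 2.45 ± 0.271 CPM (adjusted p = 0.00107), while Pdgfra had 2.41 and 2.59 CPM and did not pass. The call for Dcn was lost without AdAC CellC replicate 2 (adjusted p = 0.0535) or AdAC direct replicate 2 (adjusted p = 0.0749) and under DESeq2 (adjusted p = 0.0725). Of 13 mural cell markers 5 rose and 7 fell (median -0.50). Their summed level went from 578 to 599 CPM in AdAC direct to 1789 to 2123 CPM in AdAC CellC through the contractile genes Acta2 and Tagln, while the pericyte genes Kcnj8 (8.66 and 0.261 CPM) and Abcc9 (21.4 and 0.332 CPM) fell. Microglial, endothelial and neuronal markers summed to at most 193, 204 and 400 CPM in any library. The neuronal sum went from 188.2 to 204.5 CPM in AdAC direct to 323.9 to 400 CPM in AdAC CellC, with 6 of 16 markers higher and 6 lower. Of 18 microglial markers 10 rose and 4 fell, although their sum was lower in AdAC CellC (119 to 158.5 CPM) than in AdAC direct (176.6 to 192.8 CPM). Of 14 endothelial markers 1 rose and 7 fell. In such bulk libraries fewer cells of a type and less RNA per cell cannot be told apart.

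**Figure D1:**
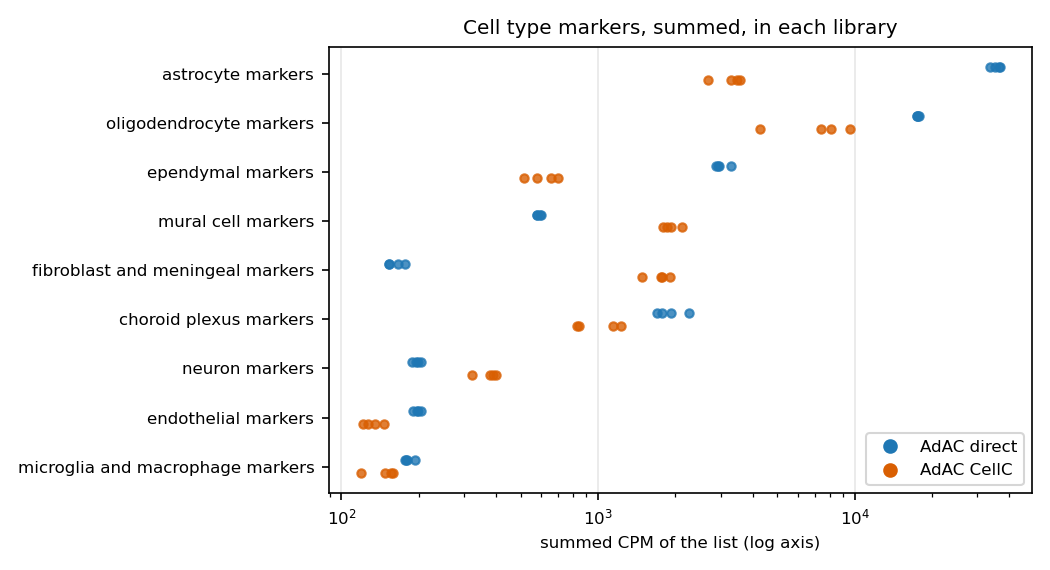
Summed CPM of 9 marker lists (log axis) in each of the 4 AdAC direct (blue) and 4 AdAC CellC (orange) libraries, each point a library. Astrocyte markers fell from 33589 to 36837 CPM to 2693 to 3582 CPM, below the oligodendrocyte markers of the same cultures. The sum of the mural markers was higher in AdAC CellC although 7 of the 13 markers fell, and the sum of the fibroblast markers was higher with 12 of 17 markers that rose.

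Several of the most abundant genes of the AdAC direct libraries fell. Measured as the difference of mean CPM, the genes that gave up most included Scd2, Slc1a2, Glul, Apoe, Sparcl1, Slc1a3, Bcan, Clu and Aplp1. By ratio, the 10 genes that fell most were Gjb6, Grin2c, Slc7a10, Cldn10, Ntsr2, Etnppl, Ucp3, Atp13a4, Cyp4f15 and Gpc5. Grin2c, a glutamate receptor subunit, went from 763 ± 106 to 1.25 ± 0.323 CPM, and Slc7a10, a transporter of serine and other small amino acids, from 507 ± 49.5 to 1.05 ± 0.322 CPM. Cldn10, a claudin, went from 189 ± 16.9 to 0.392 ± 0.17 CPM, a ratio of 483. All 3 had clearly separate groups, and their low means in the cultures still lay above the level of 3 counts.

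**Figure D2:**
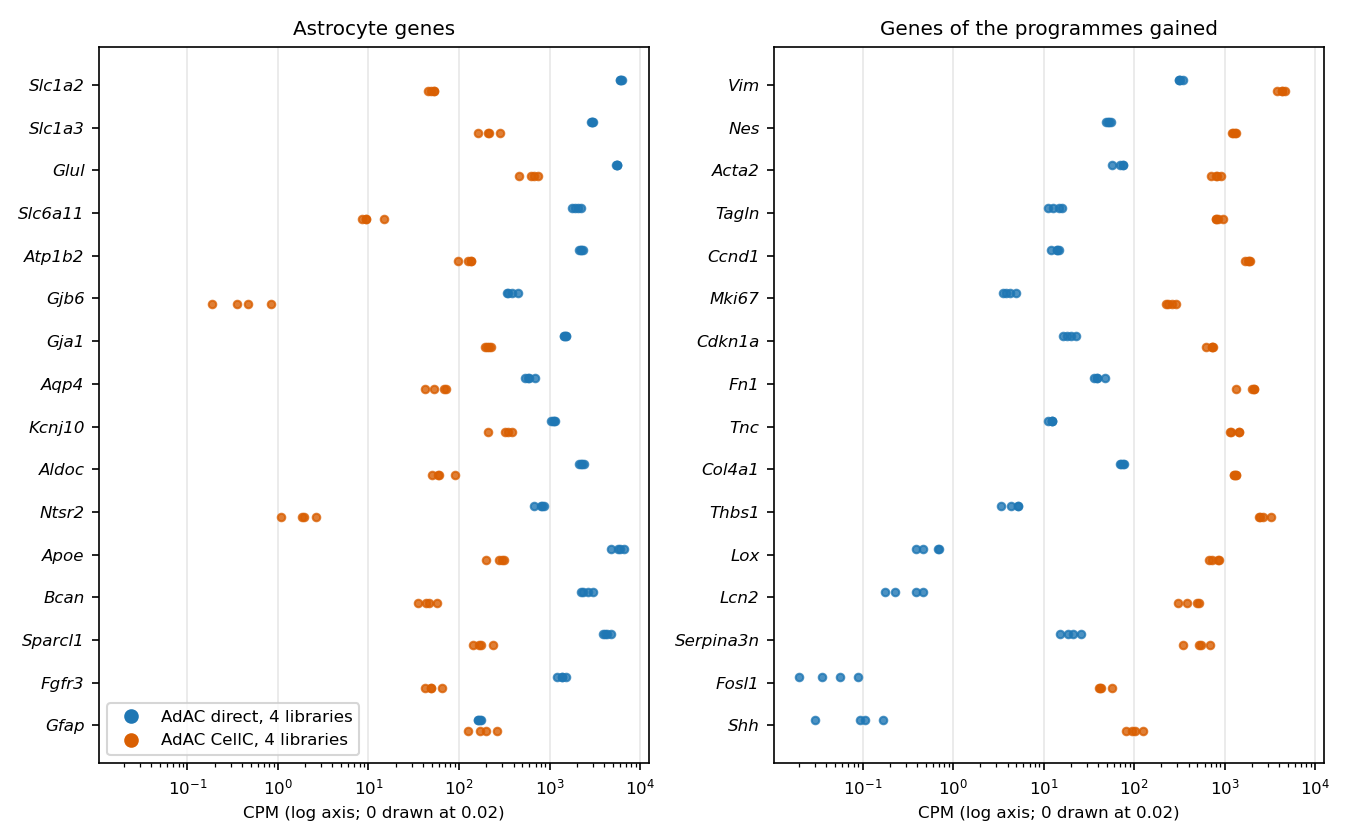
CPM (log axis) of 16 astrocyte genes and of 16 genes of the programmes gained in each AdAC direct (blue) and AdAC CellC (orange) library, each point a library. Every gene shown is separated between the groups except Gfap, and Slc1a2 lies between 5958 and 6277 CPM in AdAC direct and between 45.8 and 52.4 CPM in AdAC CellC.

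Both astrocytic glutamate transporters fell. Slc1a2, which encodes GLT-1 and takes up most synaptic glutamate, had 6068, 6106, 5958 and 6277 CPM in AdAC direct and 49.3, 52.3, 45.8 and 52.4 CPM in AdAC CellC. The groups were far apart, a 122-fold fall, with a log2 fold change of -6.93 ± 0.22 (adjusted p = 6.03e-19). Slc1a3, the gene of GLAST, fell from 3036, 2905, 2926 and 2962 CPM to 163, 210, 216 and 286 CPM (log2 fold change -3.76 ± 0.15, adjusted p = 2.23e-17), and Glul, the glutamine synthetase, from 5517 ± 82.4 to 626 ± 122 CPM. Of the 11 members of the list for glutamate uptake and the glutamine cycle, 8 fell and 3 rose (median log2 fold change -1.40). Those that rose included the transaminases Got1 (43.7 and 60.1 CPM) and Got2 (61.9 and 144 CPM). Both were chosen after their values were seen, as were all genes that are neither anchors of a list nor among the genes with the largest changes.

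Genes of GABA handling had the lowest median of the functional lists, -3.43 on the log2 scale, with 11 of 12 members lower and 1 higher. Slc6a11, the astrocytic GABA transporter GAT-3, had 2051, 2245, 1910 and 1772 CPM in AdAC direct and 8.56, 9.44, 9.46 and 14.7 CPM in AdAC CellC, a 189-fold fall (log2 fold change -7.56 ± 0.22, adjusted p = 9.71e-20). Gabbr2, a subunit of the GABA-B receptor, went from 180 ± 3.78 to 0.786 ± 0.228 CPM.

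Genes of potassium buffering, water exchange and coupling fell as well. Of 16 endfoot water and potassium channel genes 12 fell and 4 rose (median -1.71). Aqp4, the water channel of the endfeet, went from 585, 580, 539 and 691 CPM to 41.6, 68, 53 and 71 CPM (log2 fold change -3.36 ± 0.22, adjusted p = 1.92e-12). Kcnj10, the inward rectifier Kir4.1, kept more of its level, with 1108 ± 44.7 CPM in AdAC direct and 315 ± 73.8 CPM in AdAC CellC. Among 7 gap junction genes 5 fell and 2 rose, and the 2 astrocytic connexins fell to different degrees. Gjb6, the gene of connexin 30, had 381 ± 47 CPM in AdAC direct and 0.457 ± 0.273 CPM in AdAC CellC, an 833-fold fall and the largest ratio of all lower genes that met the rule for named genes. Gja1, the gene of connexin 43, fell by 2.84 ± 0.29 on the log2 scale, from 1491 ± 50 to 209 ± 13.9 CPM. Of 16 genes of the sodium pump and ion cotransporters 9 fell and 5 rose (median -0.67). The pump subunit Atp1b2 fell from 2235 ± 99 to 123 ± 17.9 CPM, whereas Atp1b1, another beta subunit, rose (115 and 250 CPM). Atp1b2 carries the ACSA-2 antigen by which the cells of both groups were sorted.

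In the list of calcium-coupled receptors and stores 16 of 25 members fell and 6 rose (median -1.19). Besides receptors, the list and its count held genes of calcium stores, channels and pumps, among them Itpr1, Itpr2, Stim1 and Atp2a2. Ntsr2, a neurotensin receptor, was nearly lost, with 795 ± 80.4 CPM in AdAC direct and 1.88 ± 0.64 CPM in AdAC CellC, and Grm3, the metabotropic glutamate receptor of mature astrocytes, fell from 292 ± 13 to 9.59 ± 1.33 CPM. Adora1 and Adora2b, receptors for adenosine, and Adra1a and Adra2a, receptors for noradrenaline, fell by 2.40 to 4.72 on the log2 scale. Members that rose included F2r, the thrombin receptor (9.82 and 143 CPM), the nucleotide receptor P2ry2 (1.58 and 15.6 CPM) and Grm5, the metabotropic receptor of immature astrocytes (log2 fold change 1.94). The list thus held members of both directions.

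Genes of proteins that astrocytes secrete to lipid particles, matrix and synapses changed in both directions. Apoe, the main lipid carrier of the brain, fell from 5723, 6679, 5974 and 4758 CPM to 197, 301, 310 and 274 CPM (log2 fold change -4.42 ± 0.22, adjusted p = 3.89e-15), and Clu, another lipid carrier, from 3150 ± 297 to 715 ± 95.8 CPM. Of 15 genes of lipid transport 10 fell and 3 rose. Sparcl1, the synapse-promoting protein hevin, fell from 4270 ± 353 to 180 ± 40.3 CPM, whereas its relative Sparc, which opposes hevin at the synapse, rose from 667 ± 98.7 to 3774 ± 127 CPM. Thrombospondin 1, an inducer of synapses, showed one of the largest gains, with 5.25, 3.40, 4.34 and 5.25 CPM of Thbs1 in AdAC direct and 3285, 2647, 2408 and 2479 CPM in AdAC CellC. In the list of secreted synapse factors 10 of 17 members rose and 7 fell. Those that fell included Nlgn1, Nlgn2, Megf10 and Mertk, which encode membrane proteins and not secreted factors. Bcan, the proteoglycan brevican of the perineuronal matrix, fell from 2569 ± 351 to 45.5 ± 8.73 CPM.

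Metabolic genes split by pathway. Fatty acid oxidation and ketone synthesis fell in 16 of 24 members and rose in 5 (median -0.64), with Acsbg1, an acyl-CoA synthetase, from 722 ± 49.3 to 94 ± 23.9 CPM and Acsl6 from 735 to 30.0 CPM. Of 29 genes of glycolysis, lactate and glycogen 12 rose and 13 fell (median -0.12). Aldoc, the brain isoform of aldolase, fell from 2408, 2215, 2296 and 2123 CPM to 50.8, 59.1, 60.7 and 89.3 CPM, and the glycogen phosphorylases Pygm and Pygb fell by 4.18 and 2.03 on the log2 scale. In contrast, Ldha, the subunit of lactate dehydrogenase that favours lactate, rose from 88.3, 94.8, 82.5 and 79.9 CPM to 411, 391, 394 and 436 CPM, while Ldhb fell from 365 to 164 CPM. Hk2, the inducible hexokinase, rose from 4.1 to 65.7 CPM. In the list of serine and folate metabolism 15 of 21 members rose and 6 fell (median 1.44). Besides enzymes of these pathways, the list and its count held Asns, the asparagine synthetase (2.44 and 118 CPM), and Chac1 (0.353 and 17.1 CPM). They also held the transporter gene Slc7a5 and Atf4, the gene of the stress factor ATF4 (101 and 273 CPM), and all of these rose. Asns, Chac1 and the folate enzyme gene Mthfd2 (14.4 and 75 CPM) are known targets of ATF4. The enzymes of serine synthesis Phgdh, Psat1 and Psph fell at the same time.

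Transcription factors of astrocyte identity fell in 20 of 28 cases and rose in 4 (median -0.99). Sox9, which is required for astrocyte fate, decreased from 255 ± 36.2 to 94.7 ± 11.3 CPM, Lhx2 from 107 to 52.1 CPM and Nfia from 96.3 to 57.6 CPM, while Nfib (114 and 235 CPM) and Nfic (189 and 363 CPM) rose and Nfix (420 and 430 CPM) and Zbtb20 (384 and 354 CPM) did not pass. Hes5, a direct Notch target, fell most, from 103, 122, 91.1 and 66.5 CPM to 0.89, 0.991, 1.94 and 1.71 CPM. Other Notch targets and modifiers fell with it, namely Nrarp (103 and 5.73 CPM), Heyl (log2 fold change -2.54) and Lfng (269 and 41.1 CPM), although the ligand Jag1 rose (36.0 and 67.3 CPM). Hes1 rose from 31.5 to 43.3 CPM (adjusted p = 0.0300), a call that was lost without AdAC CellC replicate 4, AdAC direct replicate 3 or AdAC direct replicate 4 and under DESeq2 (adjusted p between 0.0578 and 0.0944). In all, 13 of 22 members of the Notch list fell and 7 rose.

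Signalling pathways held members of both directions, with 11 of 25 genes of FGF and EGF receptors and ERK feedback higher and 12 lower (median 0.11), and 5 of 14 Hedgehog genes higher and 6 lower (median -0.07). Fgfr3, the fibroblast growth factor receptor of astrocytes, fell from 1378, 1516, 1361 and 1210 CPM to 41.6, 48.8, 48.7 and 64.7 CPM (log2 fold change -4.75 ± 0.25, adjusted p = 2.38e-14), whereas Dusp6, a feedback target of ERK, rose from 37.6 ± 2.58 to 110 ± 6.18 CPM. Slco1c1, which imports thyroid hormone, fell from 371 ± 31.2 to 8.34 ± 1.26 CPM, and Dio2, which activates the hormone, from 165 to 31.2 CPM. In the Hedgehog pathway the ligand Shh and the targets Gli1 and Ptch1 moved in opposite directions. Shh, the gene of the ligand Sonic hedgehog, had 0.106, 0.0927, 0.0297 and 0.169 CPM in AdAC direct and 124, 103, 81.9 and 94.9 CPM in AdAC CellC (adjusted p = 3.83e-15). Gli1, the transcription factor that reports pathway activity, fell from 82.3, 93.1, 93.6 and 68 CPM to 1.72, 3.5, 4.17 and 5.68 CPM, and the receptor gene Ptch1, also a target, fell from 365 ± 20.5 to 91.8 ± 9.93 CPM. Gli1 and Shh each overlap genes on the other strand, and since the strand setting of the counting is not stated in the sources used here, reads of such pairs could not be separated. The same limit holds for 53 of the 185 genes named with values or sequences, among them Slc1a2, Fgfr3, Hes5, Ccnd1, Thbs1, Lox, Fn1, Tnc, Tagln and Col4a1. Among 36 Wnt genes 16 fell and 15 rose, with the target Axin2 at 55.7 and 34.6 CPM.

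The motile cilium was the most uniform of the lost programmes. All 53 tested members of the axoneme list, which hold the dynein arms, radial spokes and tektins that make cilia beat, were lower in AdAC CellC, against 39.4% of all genes, with log2 fold changes from -4.74 to -1.18 and a median of -2.64. Dnah10, a heavy chain of the inner dynein arm, had 258, 259, 264 and 262 CPM in AdAC direct and 9.33, 11.6, 8.23 and 9.87 CPM in AdAC CellC. Dnah9, of the outer arm, fell from 203 ± 8.72 to 27.8 ± 4.43 CPM. Foxj1, the master regulator of motile cilia, fell less, from 416 ± 20 to 209 ± 36.4 CPM (log2 fold change -0.99 ± 0.15). Motile cilia are a trait of ependymal cells rather than of astrocytes, and the ependymal markers fell along with the axoneme genes (15 of 16 lower, none higher, summed CPM 4.95-fold lower). The part of ependymal cells in this change was not tested. Genes of intraflagellar transport and the BBSome, which build primary as well as motile cilia, fell in 26 of 35 cases and rose in 4, with a smaller median of -0.69, for example Ift88 from 51.9 to 17.6 CPM and Arl13b from 40.8 to 25.3 CPM.

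Most genes of the cell cycle rose. Of 34 DNA replication genes 32 rose and none fell (median log2 fold change 2.33), and of 28 mitosis genes 27 rose and 1 fell (median 5.42), against 38.7% of all genes that rose. Mki67, the proliferation antigen, had 3.8, 3.52, 4.28 and 4.94 CPM in AdAC direct and 261, 224, 234 and 288 CPM in AdAC CellC (log2 fold change 5.92 ± 0.19, adjusted p = 6.79e-19). Top2a, the topoisomerase of dividing cells, rose from 4.05 ± 0.299 to 258 ± 24.5 CPM, Ccnb1, the cyclin of mitosis, from 0.914 ± 0.283 to 64.4 ± 5.66 CPM, and Mcm2, of the replicative helicase, from 9.44 ± 1.14 to 121 ± 7.71 CPM. The member that fell was Anln, the anillin of the cleavage furrow, which is also made by oligodendrocytes (393 and 152 CPM). Ccnd1, the cyclin that drives entry into the cycle, rose from 12.2, 14.2, 14.2 and 14.8 CPM to 1794, 1844, 1686 and 1897 CPM. Brakes of the cycle rose with it. The p53 target Cdkn1a rose from 23, 16.6, 18.2 and 20.1 CPM to 741, 723, 726 and 619 CPM, Cdkn2b from 1.76 to 37.2 CPM, and Cdkn2a, which is silent in most young tissue, from 0.0996 ± 0.0332 to 18.5 ± 1.38 CPM. In the list of D cyclins and cyclin-dependent kinase inhibitors, which also holds the kinases Cdk4 and Cdk6, 11 of 12 members were higher and only Cdkn1b lower (log2 fold change -0.58).

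Genes of protein synthesis were as uniform. All 73 tested genes of cytosolic ribosomal proteins rose, with a median log2 fold change of 1.87, and together they took 7546 to 8393 CPM in AdAC direct and 27566 to 32893 CPM in AdAC CellC. Rpl3 stands for the group with 228 ± 4.91 and 676 ± 49.5 CPM. The elongation factors Eef1a1 (1370 ± 49.7 to 4262 ± 202 CPM) and Eef2 (856 ± 38.6 to 2299 ± 134 CPM) were among the 10 genes that gained most CPM. All 31 proteasome subunits rose too, by a smaller amount (median 0.95), and so did 35 of 49 nuclear genes of the respiratory chain (median 0.53). Genes of the mitochondrial genome did not follow, with 2 of 13 higher and 2 lower. Ribosomal protein genes have many processed pseudogenes, so that single values carry some uncertainty in read assignment.

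Genes of the contractile cytoskeleton and of intermediate filaments rose. Of 31 actin, myosin and other contractile genes 30 rose and none fell (median 3.20), and together they took 3275 to 3597 CPM in AdAC direct and 18059 to 20308 CPM in AdAC CellC. Acta2, the smooth muscle actin, rose from 70.5, 56.8, 75.9 and 75.7 CPM to 916, 799, 713 and 825 CPM (log2 fold change 3.54 ± 0.24, adjusted p = 4.24e-12). Tagln, which binds actin in smooth muscle, rose from 13.7 ± 2.08 to 852 ± 77.6 CPM, the calponins Cnn1 from 0.819 ± 0.113 to 99.5 ± 16.8 CPM and Cnn2 from 5.76 ± 0.542 to 401 ± 45.1 CPM, and Myh9, the non-muscle myosin, from 154 ± 6.78 to 1780 ± 114 CPM. Intermediate filament genes rose in 13 of 16 cases. Vim, the vimentin gene, went from 348, 312, 314 and 325 CPM to 4344, 4305, 3807 and 4602 CPM, and Nes, the nestin of progenitor and reactive cells, from 52.2 ± 3.01 to 1262 ± 57.7 CPM, while Gfap did not pass, as given above. In the list for YAP and TEAD, the factors that read tension and stiffness, 23 of 28 members rose and 4 fell (median 1.72). Besides targets, the list and its count held genes of the pathway itself, among them Yap1, Wwtr1, Tead3 and Lats2. Ccn2, the connective tissue growth factor, rose from 3.51 ± 0.498 to 669 ± 68.3 CPM, and Ankrd1 had no count in any AdAC direct library and 3.71, 2.51, 3.61 and 3.54 CPM in AdAC CellC, at least 35.9-fold higher when 3 counts per library are taken as the limit.

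Promoters of several groups were searched on both strands for the motif that is classically tied to each, in RefSeq sequences of GRCm38.p6 from 250 bases before to 50 bases after the gene start. A CArG box, the site of serum response factor, was found in 7 of 26 contractile genes with a promoter in the table (26.9%), against 1.74% of 25748 genes outside chromosomes X and Y. The CHR motif, written TTTGAA, was found in 19 of 25 mitosis genes (76%) against 19.9% of all. The X-box of RFX factors was found in 5 of 43 axoneme genes (11.6%) against 1.47% of all. The antioxidant response element was found in 2 of 20 metallothionein and NRF2 target genes (10%) against 3.53% of all, and the E2F sites TTTGGCGC or TTTCCCGC in none of the 25 mitosis genes against 1.8% of all. These shares are descriptions of the sequences, and a match is not a bound site. The members of each group with the largest absolute log2 fold change, among those that held the motif and had a single promoter in the table, are given with the motif in capitals, so that its place relative to the gene start can be seen. The contractile genes come first, with Cnn2 at chr10:79988350-79988649 on the plus strand, Acta1 at chr8:123894726-123895025 on the minus strand and Actg1 at chr11:120348446-120348745 on the minus strand, whose log2 fold changes were 6.12, 3.37 and 2.24. In these 3 the box began at -56, -73 and -90.
Cnn2: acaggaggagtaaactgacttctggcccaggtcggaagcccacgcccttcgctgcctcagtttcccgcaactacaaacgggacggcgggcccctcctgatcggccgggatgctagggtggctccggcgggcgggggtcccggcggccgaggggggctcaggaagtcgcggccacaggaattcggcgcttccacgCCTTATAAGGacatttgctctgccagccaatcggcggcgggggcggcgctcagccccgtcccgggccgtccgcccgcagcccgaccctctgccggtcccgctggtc
Acta1: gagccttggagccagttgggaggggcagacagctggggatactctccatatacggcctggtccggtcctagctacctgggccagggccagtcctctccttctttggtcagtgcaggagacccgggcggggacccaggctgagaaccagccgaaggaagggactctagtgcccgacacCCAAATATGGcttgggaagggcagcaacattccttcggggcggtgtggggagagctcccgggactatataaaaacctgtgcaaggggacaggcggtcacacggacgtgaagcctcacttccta
Actg1: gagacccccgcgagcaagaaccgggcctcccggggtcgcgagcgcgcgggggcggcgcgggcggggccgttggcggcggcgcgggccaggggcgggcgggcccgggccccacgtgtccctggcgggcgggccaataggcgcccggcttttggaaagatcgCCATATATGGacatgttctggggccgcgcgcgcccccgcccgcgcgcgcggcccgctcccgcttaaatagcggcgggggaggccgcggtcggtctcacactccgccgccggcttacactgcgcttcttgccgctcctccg
The mitosis genes are Hmmr at chr11:40733388-40733687 and Cdk1 at chr10:69352863-69353162, both on the minus strand, and Ube2c at chr2:164769679-164769978 on the plus strand, with log2 fold changes of 7.03, 6.97 and 6.69. Cdk1 held 2 copies, at -71 and -15, and in Ube2c the motif lies on the other strand at -29.
Hmmr: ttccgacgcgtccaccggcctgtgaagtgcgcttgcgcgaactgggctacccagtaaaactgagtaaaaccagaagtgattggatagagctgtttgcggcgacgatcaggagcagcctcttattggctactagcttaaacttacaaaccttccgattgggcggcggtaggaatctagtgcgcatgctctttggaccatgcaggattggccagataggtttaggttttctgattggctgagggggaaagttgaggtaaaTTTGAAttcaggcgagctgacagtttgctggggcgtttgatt
Cdk1: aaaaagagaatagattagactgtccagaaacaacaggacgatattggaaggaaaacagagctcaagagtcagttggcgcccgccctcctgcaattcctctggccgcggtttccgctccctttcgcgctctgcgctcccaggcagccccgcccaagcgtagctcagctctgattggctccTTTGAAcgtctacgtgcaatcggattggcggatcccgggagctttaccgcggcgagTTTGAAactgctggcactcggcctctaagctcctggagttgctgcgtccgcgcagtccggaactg
Ube2c: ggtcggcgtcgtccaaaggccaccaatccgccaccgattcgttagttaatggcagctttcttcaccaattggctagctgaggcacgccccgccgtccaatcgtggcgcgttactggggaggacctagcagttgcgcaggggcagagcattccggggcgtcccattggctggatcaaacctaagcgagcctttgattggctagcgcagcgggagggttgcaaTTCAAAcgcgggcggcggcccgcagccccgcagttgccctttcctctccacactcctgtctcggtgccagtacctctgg
The axoneme genes, which fell, are Ttc29 at chr8:78213092-78213391 on the plus strand and Cfap70 at chr14:20452176-20452475 on the minus strand, with log2 fold changes of -3.38 and -3.16 and an X-box at -41 and -12.
Ttc29: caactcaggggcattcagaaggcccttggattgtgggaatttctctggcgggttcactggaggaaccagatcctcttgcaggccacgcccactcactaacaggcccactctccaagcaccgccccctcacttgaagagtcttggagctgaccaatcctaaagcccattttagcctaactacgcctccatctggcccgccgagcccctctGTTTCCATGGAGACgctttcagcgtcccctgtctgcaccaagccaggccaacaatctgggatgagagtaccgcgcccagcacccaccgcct
Cfap70: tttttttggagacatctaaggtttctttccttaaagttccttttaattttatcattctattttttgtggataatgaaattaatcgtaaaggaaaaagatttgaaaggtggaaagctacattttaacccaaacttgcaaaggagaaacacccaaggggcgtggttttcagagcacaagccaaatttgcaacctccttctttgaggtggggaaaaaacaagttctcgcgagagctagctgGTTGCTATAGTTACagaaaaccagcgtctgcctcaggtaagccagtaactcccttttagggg

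**Figure D3:**
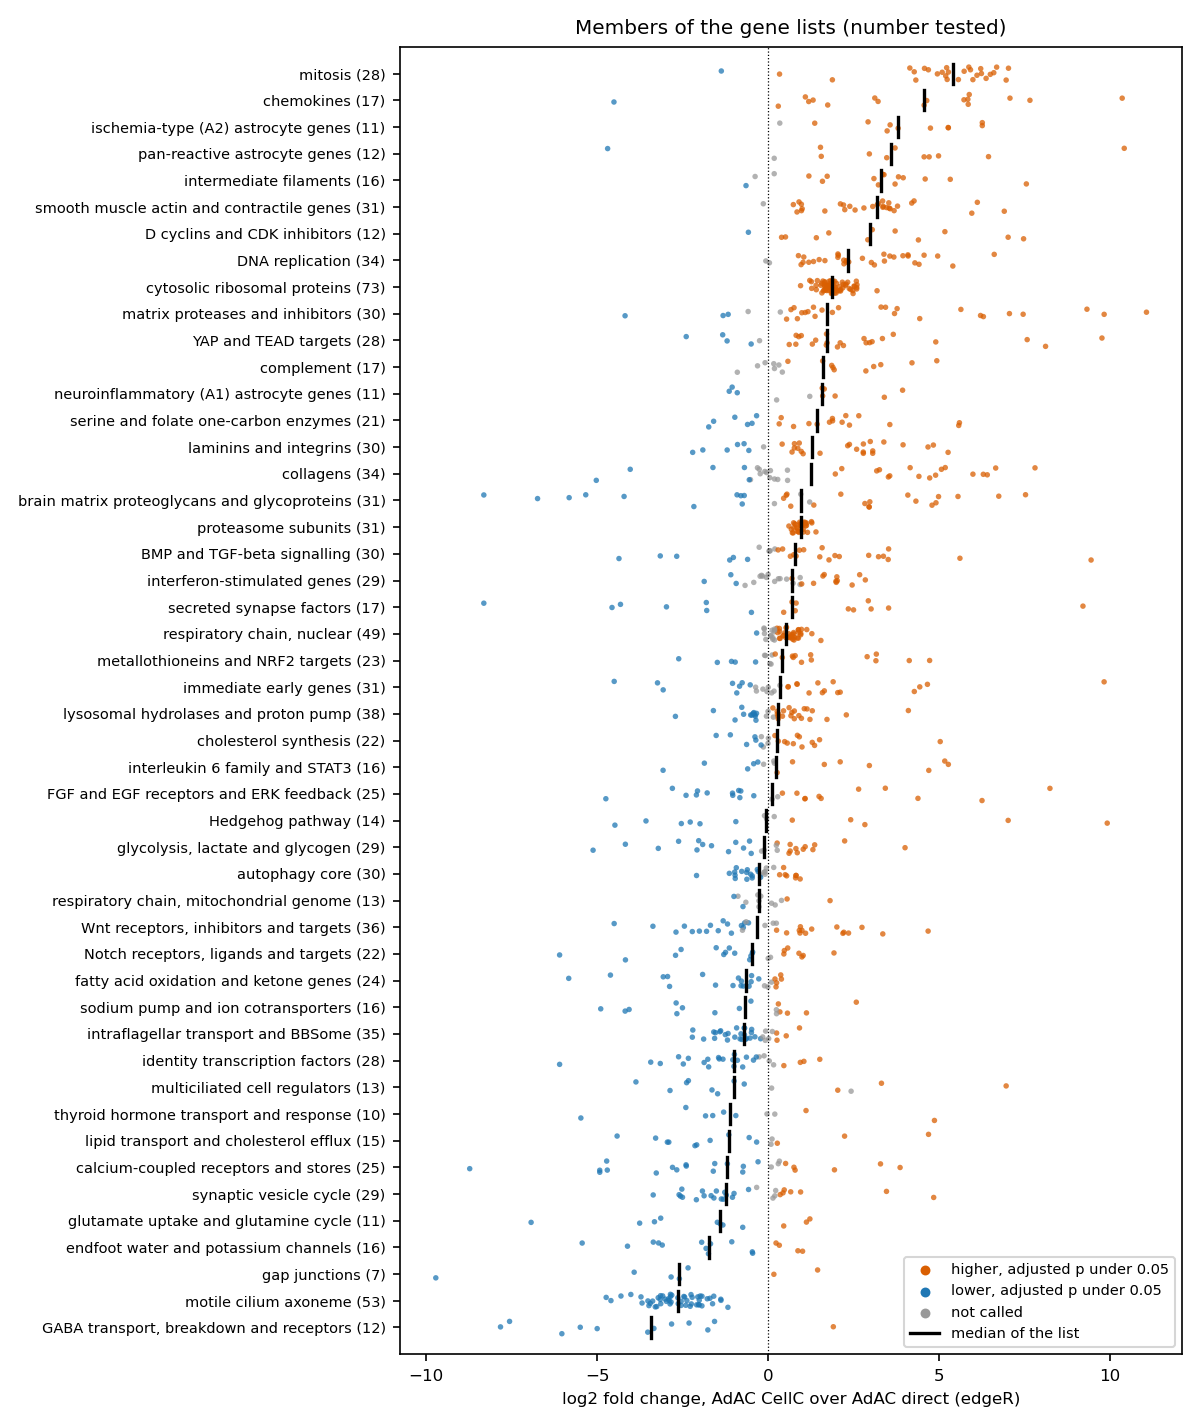
Log2 fold change of AdAC CellC over AdAC direct for each tested member of the functional gene lists, ordered by the list median (black bar), with members that passed in orange (higher) or blue (lower) and the others in grey. Mitosis, chemokine, A2 and pan-reactive lists lie at the top, ribosomal and proteasome genes form tight clusters above 0, and the GABA, axoneme and gap junction lists lie at the bottom.

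Matrix genes changed in both directions. Fn1, the fibronectin gene, rose from 47.4, 39, 38.6 and 36.4 CPM to 2129, 1331, 2114 and 2011 CPM (log2 fold change 5.56 ± 0.31, adjusted p = 1.87e-13). Tnc, the matrix protein tenascin-C of developing and injured brain, rose from 11.1, 12.3, 12.5 and 12.2 CPM to 1153, 1161, 1425 and 1446 CPM. Of 34 collagen genes 17 rose, 5 fell and 12 did not pass (median 1.27), and their summed level went from 1394 to 1694 CPM to 8408 to 9080 CPM. Col4a1, of the basement membrane, rose from 73 ± 3.11 to 1301 ± 37.9 CPM, and the fibrillar collagens Col1a1 and Col5a1 from 38.2 ± 7.09 to 813 ± 147 CPM and from 16.1 ± 2.62 to 584 ± 79.9 CPM. Fibrillar collagens are also in the list of fibroblast and meningeal markers, of which 12 of 17 rose and 2 fell, as given above, and the part of fibroblasts in the change was not tested. Lox, which cross-links collagen, had 0.461, 0.68, 0.386 and 0.705 CPM in AdAC direct and 876, 841, 679 and 732 CPM in AdAC CellC, the largest ratio of all higher genes that met the rule (1401). In the list of brain proteoglycans and glycoproteins 18 of 31 members rose and 10 fell. The 10 included, besides Bcan, the lectican Ncan, Cspg5 (804 and 19.9 CPM), the receptor phosphatase Ptprz1 (918 and 204 CPM) and Hapln1, the link protein of perineuronal nets (62.9 and 0.577 CPM).

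Receptors for matrix and enzymes that cut it rose together. Of 30 laminins and integrins 23 rose and 6 fell, among them Itga5, the fibronectin receptor (7.21 ± 1.18 to 185 ± 22.5 CPM), and Itgb1 (137 to 946 CPM). Matrix proteases and their inhibitors rose in 25 of 30 cases and fell in 3 (median 1.73). The membrane protease Mmp14 rose from 112 ± 12.6 to 237 ± 25.2 CPM. Timp4, an inhibitor of metalloproteases, was the member that fell most (129 and 7.08 CPM).

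Most genes of reactive astrocytes rose. Of 12 pan-reactive genes 10 rose and 1 fell (median 3.59), of 11 genes of the ischemia type (A2) 10 rose and none fell (median 3.81), and of 11 genes of the neuroinflammatory type (A1) 6 rose and 3 fell (median 1.58). Whether these lists differ was not tested. Lcn2, the lipocalin of reactive astrocytes, had 0.39, 0.463, 0.178 and 0.226 CPM in AdAC direct and 309, 526, 493 and 388 CPM in AdAC CellC. Serpina3n, a protease inhibitor of the same kind, rose from 25.7, 15.1, 18.8 and 21.4 CPM to 349, 555, 692 and 524 CPM, and Cd44, the hyaluronan receptor, from 8.91 ± 1.02 to 283 ± 11.9 CPM. The A2 members Emp1 (14.9 and 166 CPM), S100a10 (15.3 and 182 CPM) and Ptx3 (0.611 and 47.7 CPM) rose, and the A1 members H2-D1 (72.1 and 216 CPM) and Serping1 (7.39 and 22.4 CPM) rose while Srgn (2.05 and 1.10 CPM) and Amigo2 (19.8 and 9.53 CPM) fell.

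Chemokines rose in 16 of 17 tested cases (median 4.57). Ccl2, which attracts monocytes, went from 0.422 ± 0.256 to 56.1 ± 5.23 CPM and Cxcl1, which attracts neutrophils, from at most 0.185 CPM in any AdAC direct library to 25.3, 21.9, 24.9 and 24.8 CPM. Cxcl14 alone fell (300 and 13.2 CPM). Most of these genes were near the detection limit in AdAC direct, and 7 chemokine genes were higher when only genes with at least 10 counts in every adult library were tested. In the interleukin 6 family the ligands Lif (5.57 ± 0.17 to 145 ± 22.6 CPM) and Clcf1 (2.14 to 82.7 CPM) and the feedback gene Socs3 (17.1 ± 2.74 to 73.6 ± 14 CPM) rose, while the receptors Lifr (82.9 and 22.8 CPM) and Cntfr (282 and 33.5 CPM) fell. Complement genes rose in 10 of 17 cases and none fell, with C3, the central component, from 39.1 ± 3.69 to 333 ± 86.8 CPM. The C1q genes C1qa, C1qb and C1qc, which are made by microglia, rose from about 3.2 to about 12 CPM, together with Tyrobp (0.779 and 5.55 CPM), whereas Cx3cr1 (2.77 and 0.715 CPM) and P2ry12 (3.96 and 0.747 CPM) fell.

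A single culture stood apart in interferon-stimulated genes. Of 29 interferon-stimulated genes 12 rose and 3 fell, close to the 38.7% of all genes that rose, and 14 did not pass. Ifit1, a typical interferon-induced gene, had 3.09, 2.01, 4.78 and 3.98 CPM in AdAC direct and 18.4, 2.83, 3.29 and 2.2 CPM in AdAC CellC, and Mx1 had 2.3 CPM in AdAC CellC replicate 1 and at most 0.291 CPM in the other 3 cultures. Neither gene passed (adjusted p = 0.134 and 0.258). The summed level of the list was 600 CPM in AdAC CellC replicate 1, 359 to 383 CPM in the other cultures and 330 to 391 CPM in AdAC direct. Without that library the median log2 fold change of the list was 0.091 instead of 0.70, and 10 members were higher.

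Some factors and ligands were almost absent in AdAC direct and present in AdAC CellC. Fosl1, a member of the AP-1 family, had at most 0.0892 CPM in AdAC direct and 56.3, 41.8, 41.2 and 43.1 CPM in AdAC CellC (adjusted p = 2.37e-14). Hmga2, a chromatin protein of embryonic and dividing cells, had at most 0.0618 CPM in AdAC direct and 97.9, 77.1, 88.5 and 84.3 CPM in AdAC CellC (adjusted p = 6.75e-14). Grem1, an antagonist of bone morphogenetic proteins, had at most 0.0846 CPM in AdAC direct and 43.9, 28.6, 46.8 and 42.2 CPM in AdAC CellC, and Vgll3, a cofactor of TEAD, rose from 0.228 ± 0.129 to 92.7 ± 11.3 CPM. For Fosl1, Hmga2 and Grem1 every direct library had 3 counts or fewer, so that no fold change is given. Fosl1 and Hmga2 are among the genes that overlap others on the other strand. Among ligands of growth factor receptors, Hbegf (35.6 and 223 CPM), Areg (0.442 and 9.38 CPM) and Ereg (0.13 and 40.9 CPM), all ligands of the EGF receptor, rose, while Egfr itself fell (93.2 and 53.6 CPM). Transforming growth factor genes Tgfb1 (1.97 and 22.8 CPM) and Tgfb3 (19.5 and 203 CPM) rose, and 19 of 30 genes of BMP and TGF-beta signalling rose and 6 fell. Igfbp2, a binding protein of insulin-like growth factors, was among the genes that gained most CPM (165 ± 22.1 to 2845 ± 320 CPM).

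Immediate early genes, which tissue dissociation is known to induce, had no common direction, with 15 of 31 members higher and 8 lower in AdAC CellC (median 0.35). Fos, which fell, had 468, 698, 511 and 437 CPM in AdAC direct and 43.3, 59.3, 64.3 and 57.7 CPM in AdAC CellC (log2 fold change -3.23 ± 0.34, adjusted p = 1.3e-08), and Egr1 fell from 256 ± 53.2 to 124 ± 22.1 CPM. The summed level of the list was 1964 to 2944 CPM in AdAC direct and 1802 to 1905 CPM in AdAC CellC. The part of tissue dissociation in the comparison was not tested. Of 23 metallothioneins and NRF2 targets 13 rose and 5 fell. Hmox1, the haem oxygenase, rose from 9.15 ± 0.326 to 242 ± 46.8 CPM, whereas Mt1, a metallothionein, fell from 554 ± 78.6 to 264 ± 20.8 CPM.

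The remaining lists moved less or in both directions. Genes of the synaptic vesicle cycle fell in 18 of 29 cases and rose in 7 (median -1.22), autophagy genes fell in 16 of 30 and rose in 8 (median -0.25), and lysosomal genes rose in 22 of 38 and fell in 13 (median 0.28). Of 22 cholesterol synthesis genes 12 rose and 6 fell, with Hmgcs1, the synthase at the start of the pathway, at 217 and 392 CPM. Markers of oligodendrocyte precursors fell in 6 of 11 cases and rose in 2, and those of neural stem cells and neuroblasts fell in 8 of 19 and rose in 6.

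Whether these effects of culture are particular to adult cells was asked with the corresponding neonatal groups, neoAC CellC and neoAC direct, 4 libraries each, from C57BL/6J mice of 4 to 8 days, which share no library with the adult groups. The difference of the culture effects passed in 13021 of 18935 genes (68.8%, edgeR adjusted p under 0.05). In 8.14% of all genes both effects passed, exceeded 1 on the log2 scale and had opposite signs, and so did 153 of the genes of the lists, 91 of them lower and 62 higher in the adult cultures. Neonatal tissue was dissociated with another kit and freed of meninges, so that age, kit and dissection cannot be told apart.

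The axoneme list showed the clearest opposition, with a median of -2.64 in adult and 2.32 in neonatal cells, and the difference passed below 0 in all 53 genes. The 10 genes with the smallest p among list genes with opposite effects were named by that rule, so that their opposite signs are no finding. Those lower in adult and higher in neonatal cultures were Ccdc153, Kcnk1, Dynlrb2, Ak7, Dnah2, Dnali1, Myb and Hdc, of which Kcnk1, a potassium channel, comes from the endfoot list. Ccdc153, an ependymal marker, fell by 5.10 ± 0.17 in adult and rose by 3.02 ± 0.16 in neonatal cells. Nid1 and Tead2, a basement membrane and a TEAD gene, went the opposite way. Ribosomal protein genes had a median of 1.87 in adult and -0.02 in neonatal cells. Mitosis genes rose more in adult (median 5.42) than in neonatal cells (median 1.21), and the difference passed above 0 in 26 of 28. The starting levels differed, with Mki67, Top2a and Ccnb1 at 126, 133 and 32.5 CPM in neoAC direct and 4.13, 4.05 and 0.914 CPM in AdAC direct. In culture the same genes had 205, 342 and 78.4 CPM in neoAC CellC and 252, 258 and 64.4 CPM in AdAC CellC. Cholesterol synthesis had a median of 0.25 in adult and -1.96 in neonatal cells, with the difference above 0 in all 22 genes. Interferon-stimulated genes had a median of 0.70 in adult and 3.82 in neonatal cells, with the difference below 0 in 27 of 29. For astrocyte markers the medians were -3.23 in adult and -1.08 in neonatal cells, and the difference passed below 0 in 23 of 26 and above 0 in 1.

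**Figure D4:**
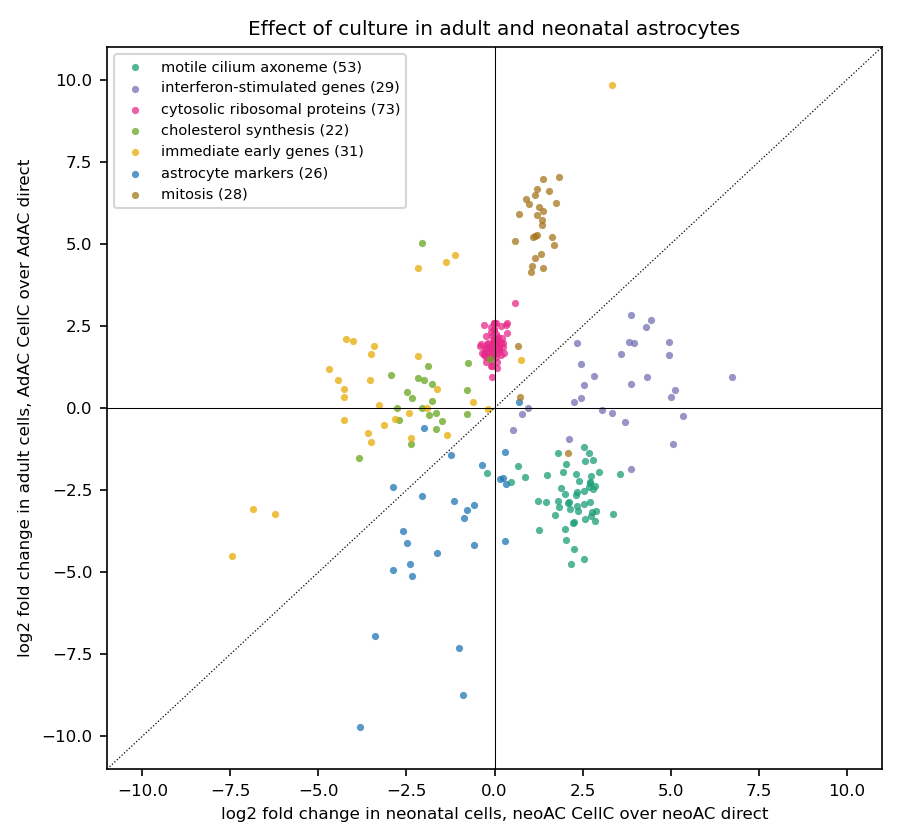
Log2 fold change of culture over direct isolation in adult cells (vertical axis) against that in neonatal cells (horizontal axis) for the tested members of 7 lists, each point a gene; the dotted line marks equal effects. Axoneme genes lie at the lower right, ribosomal genes above 0 at about 0 on the horizontal axis, and mitosis genes far above the line.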

How the data were processed

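RNA was prepared from isolations of 2 pooled mice each and sequenced from stranded mRNA libraries. The authors aligned the reads to GRCm38 with STAR 2.7.3a and counted exon reads per gene with featureCounts, and the deposited values are raw counts per gene. The strand setting is not given in the sources used here. Columns were assigned to samples by their names.

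The AdAC CellC and AdAC direct libraries were compared with edgeR 4.0.16. Genes were filtered with filterByExpr, scaled with TMM, and fitted over all 24 libraries of 6 groups, which share an estimate of the spread, with the robust quasi-likelihood test. P-values were adjusted by Benjamini-Hochberg over all 19691 genes tested, and 18935 on chromosomes 1 to 19 and the mitochondrial genome are reported. CPM were computed from the counts of each library over its TMM-scaled total of the genes that passed the filter. The difference of culture effects between adult and neonatal cells was a contrast of the same fit. The fit was also run on simulated data in which 200 genes differed between the adult groups, far fewer than passed here. The simulation therefore could not test the scaling where most genes change. P-values measure the spread between libraries, which are isolations in the groups of primary astrocytes. In the groups of neural stem cells and stem cell-derived astrocytes they are separate cultures of different passages.

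The members and gene lists were chosen with earlier results of these data known. Named genes were the anchors of each list, the 10 higher and 10 lower protein-coding genes with the largest ratio and with the largest difference of mean CPM, among genes that passed without overlap and reached 10 CPM in either group's mean, and the 10 list genes with the smallest p for opposite effects in adult and neonatal cells. Libraries under 3 counts were set to 3 counts for ratios. Alternatives were other scalings, other filters, DESeq2 1.42.0, a fold threshold, a replicate block and leaving out each library. Motif searches in the DNA replication, cholesterol, YAP and TEAD and interferon lists were void, because under 80% of the members had a promoter in the table. Some genes of these lists are not reported here.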

Additional observations from a re-analysis of the deposited data

Results flagged for a closer look

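In 27 of 490 groups of 4 libraries tested, 1 library lay far from the other 3, where chance flags about 1 in 20. AdAC CellC replicate 1 was high in the summed interferon-stimulated genes (599.9 CPM against 358.9 to 383.1), Ifit1 (18.36 CPM), Mx1 (2.302 CPM), Fosl1 (56.33 CPM), Cnn2 (467.8 CPM), Asns (153.9 CPM) and Chac1 (22.13 CPM) and low in Scd2 (1800.1 CPM) and Cxcl14 (10.59 CPM). AdAC CellC replicate 2 was low in Fn1 (1331.0 CPM), Col1a1 (595.4 CPM), Eef2 (2100.2 CPM), Cxcl1 (21.89 CPM) and Ankrd1 (2.507 CPM). AdAC CellC replicate 4 was high in Slc6a11 (14.74 CPM) and F2r (158.5 CPM) and low in Cdkn1a (619.5 CPM) and Pygm (6.516 CPM). AdAC direct replicate 4 was high in Grm3 (311 CPM) and Srgn (2.793 CPM) and low in Mbp (4105.2 CPM), Adra1a (16.25 CPM) and Kcnj8 (7.193 CPM). AdAC direct replicate 1 was high in Timp4 (148.3 CPM) and low in P2ry2 (1.1 CPM), and AdAC direct replicate 3 was low in Lif (5.319 CPM) and Atp13a4 (189.9 CPM).

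The effect of culture differed between adult and neonatal cells in 13021 genes (68.8% of those tested), and 42 of the 185 genes named with values or sequences passed in opposite directions. Among the 42 are the 10 list genes named by the rule for opposite effects, whose signs were fixed in advance. The 42 needed no minimum fold change, and the share of all genes at that criterion was not counted. The differences, adult minus neonatal log2 fold change in edgeR's interaction test, were below 0 in Etnppl (-12.79), Ccdc153 (-8.12), Myb (-6.915), Dnah10 (-6.90), Dnali1 (-6.57), Adra2a (-6.41), Dynlrb2 (-6.05), Ak7 (-6.02), Ttc29 (-5.94), Cfap70 (-5.91), Hdc (-5.79), Kcnk1 (-5.27), Dnah9 (-4.99), Dnah2 (-4.98), Foxj1 (-4.43), Mt1 (-3.795), Anln (-3.45), Adora1 (-3.24), Ift88 (-2.69), Kcnj10 (-2.57) and Ldhb (-1.67). They were above 0 in Tnc (9.49), Cxcl1 (8.46), Ptx3 (8.04), Socs3 (6.34), Grm5 (5.48), Tgfb1 (5.30), Nid1 (5.14), Tead2 (4.75), C1qb (4.67), Tyrobp (4.55), F2r (4.43), C1qc (4.29), Atf4 (3.70), C1qa (3.65), Mmp14 (3.48), Hes1 (3.22), Jag1 (2.98), Hmgcs1 (2.87), Ldha (2.63), Rpl3 (1.80) and Nfib (1.55). Age, dissociation kit and removal of meninges cannot be told apart in these values.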

How the results depend on the processing

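The counts of higher and lower genes stayed within 1.5 times of the main values under other scalings and filters, under DESeq2 and without single libraries, and the threshold on the fold change lowered them by construction. With an absolute log2 fold change over 1 there were 4384 higher and 4816 lower genes, and 8528 genes for the difference between adult and neonatal cells. Leaving out 1 library at a time gave 7167 to 7337 higher genes, 7239 to 7355 lower genes and 12758 to 12898 genes for that difference. Scaling by DESeq2 size factors gave 6893 higher and 7939 lower genes and scaling by library size alone 7749 and 7031, with medians over all genes of -0.086 and 0.072. The median of the mural cell markers turned from -0.50 to 0.175 when only genes with at least 10 counts in every adult library were used, where fewer markers were tested. Same-numbered libraries did not deviate together (correlations of 0.008, -0.095, 0.039 and -0.043), so that no pairing by number was seen. Such correlations over 4 libraries per group cannot show that same-numbered libraries came from separate isolations. A fit of the 8 adult libraries gave 7219 higher and 7271 lower genes with a replicate block and 7318 and 7383 without it, and the difference between ages passed in 13268 and 13190 genes with and without the block. Of the values of named genes under the alternatives, 3608 kept their direction and side of the threshold, 27 lost the call (Aldh1l1, Cspg4, Dcn, Dlx2, Hes1, Mcidas and Ttr) and 8 gained it (C4b, Gfap, Ifit1, Mbp and mt-Nd1). Of the list values, 99 medians moved by more than the spread between replicates and 19 counts by more than 1.5 times. Depth limits statements on genes with 3 counts or fewer in every library of a group.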
